A study of Mus musculus with 6 samples.

Results

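The genes described here are 10 transcription factors, adapters and receptors on which B lymphocytes depend (Pax5, Ebf1, Pou2af1, Spib, Bcl11a, Pou2f2, Bank1, Ralgps2, Tnfrsf13c and Tnfrsf13b). They were chosen by symbol from 47729 annotated mouse genes, all 10 were found in the count tables, and all 10 were among the 14625 genes that passed the filter on low counts. RNA-seq was performed on lung cells enriched for endothelial cells (ECs), with 3 wild-type (WT) libraries and 3 libraries of mice that lack leene, the mouse homolog of a long noncoding RNA first described in human ECs. Every mouse was male and 14 weeks old, ate normal chow, and received angiotensin II (AngII), a peptide that raises blood pressure, from an osmotic pump at 1000 ng/kg/min for 2 weeks. Both groups therefore carry the AngII treatment and the labels differ in genotype only. The WT mice were littermates. The KO mice lack a genomic region that, besides leene, holds other noncoding RNA genes, and the deletion is not limited to ECs. The deleted gene itself was not analysed here.

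The sample labels name CD31 as the surface protein used for enrichment, the methods name CD144, and the labels speak of cells from 3 mice being pooled in each group. It is not given if each library came from 1 mouse or several, so n counts libraries and each p-value measures the spread between libraries only. EC genes were abundant, with Pecam1 (CD31) at 313 to 582 counts per 1000000 (CPM) over the 6 libraries, but the alveolar type II gene Sftpc was at 2051 CPM in WT replicate 1, 24029 and 7562 CPM in WT replicates 2 and 3, and 19809 to 23835 CPM in KO. The libraries were thus not of ECs alone, and the WT libraries were more unlike each other than the KO libraries. Total counts lay between 24464324 and 35184063 per library, and the 10 genes took from 0 to 626 counts each. In bulk RNA, a larger number of B cells and more RNA of a gene per B cell cannot be told apart.

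B cell identity rests on a small network of DNA-binding proteins. EBF1 opens the B lineage program and PAX5 then holds it, and both activate genes of the B cell antigen receptor such as Cd79a. OCT-2 (Pou2f2) and its coactivator OBF-1 (Pou2af1) act at octamer motifs in immunoglobulin promoters, and SPI-B is an ETS factor close to PU.1. A mature B cell also needs the cytokine BAFF for survival, which it senses mainly through BAFF-R (Tnfrsf13c), while TACI (Tnfrsf13b) binds both BAFF and its relative APRIL.

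Of the 10 genes, 6 are taken as made mainly by B cells among the cells of the lung (Pax5, Pou2af1, Spib, Bank1, Tnfrsf13c and Tnfrsf13b). They are called B-restricted below as a working label only, and their cell source in these libraries was not tested. Spib and Tnfrsf13b are also known from plasmacytoid dendritic cells and some myeloid cells. The other 4 are made by further cell types as well, namely Ebf1 by fibroblasts and pericytes, Bcl11a by plasmacytoid dendritic cells and lymphoid precursors, Pou2f2 by monocytes and macrophages, and Ralgps2 by epithelial and other cells.

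By the adjusted p, none of the 10 genes differed between KO and WT at the 0.05 level (quasi-likelihood test in edgeR, with Benjamini-Hochberg values over all genes tested), against 0.109% of all genes. At an unadjusted p under 0.05 in that test there were 2 of the 10, Pax5 and Spib, both higher in KO, where 5.62% of all genes were higher at that level. DESeq2 called 0 of the 10 and 0.708% of 26138 genes, and limma-voom called 0 of the 10 and 0.178% of 14625 genes. Each had 2 of the 10 at an unadjusted p under 0.05. In either direction, 1696 of all genes were at that level with DESeq2 and 1700 with limma-voom. The fitted log2 fold changes of the 10 genes were all above 0, from 0.10 for Tnfrsf13b to 1.07 for Pax5, with a median of 0.56. Over all genes tested the median was 0.03 and 54.1% were above 0.

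**Figure D1:**
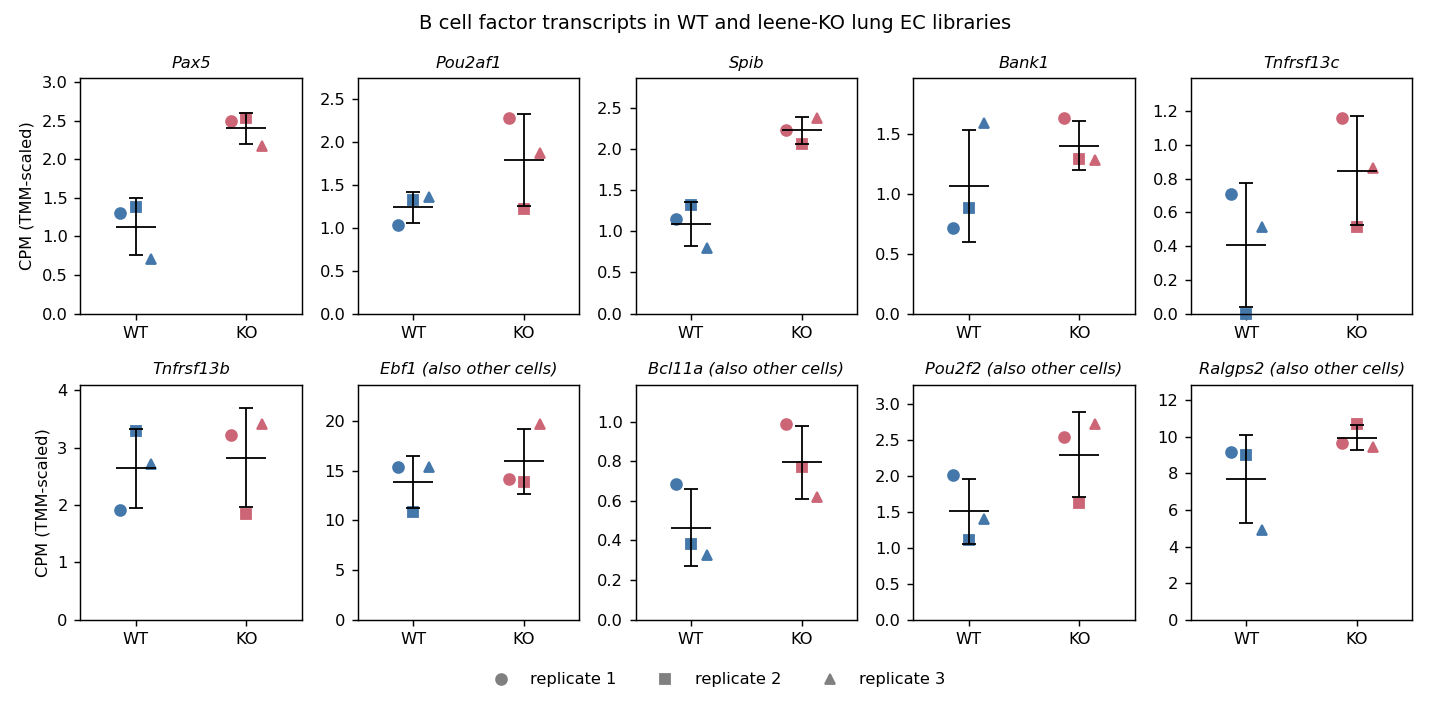
CPM of the 10 genes (vertical axes, linear from 0, a scale per gene) in WT (blue) and KO (red) libraries, with the marker shape giving the replicate and the black bars the mean ± SD of 3 libraries. The KO libraries lie above all WT libraries for Pax5, Spib and, by a small margin, Ralgps2, and the groups overlap for the other genes.

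Pax5 (chromosome 4, 44524757 to 44710487, minus strand, GRCm38) had CPM values of 1.30, 1.38 and 0.70 in the WT libraries (here and below in the order of replicates 1, 2 and 3) and of 2.49, 2.54 and 2.17 in the KO libraries. The lowest KO library exceeded the highest WT library, and WT replicate 3, with 15 counts, was the lowest. The means were 1.13 ± 0.370 in WT and 2.40 ± 0.199 in KO (mean CPM ± SD, n = 3). The log2 fold change was 1.07 (standard error, SE, 0.33, 95% interval 0.29 to 1.85, adjusted p = 0.374 in edgeR).

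Spib (chromosome 7, 44525993 to 44532071, minus strand) had nearly the same pattern, at 1.15, 1.32 and 0.80 CPM in WT and 2.23, 2.06 and 2.38 CPM in KO. The groups again did not overlap, with the lowest level in WT replicate 3. Its log2 fold change was 1.01 (SE 0.31, 95% interval 0.29 to 1.73, adjusted p = 0.365 in edgeR). An exact permutation test (two-sided) over the libraries gave p = 0.1 for each of Pax5 and Spib, the smallest value that 3 libraries against 3 allow. Without each library in turn, the log2 fold change stayed between 0.82 and 1.18 for Pax5 and between 0.83 and 1.13 for Spib.

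Non-overlapping groups with KO above WT were seen for 3 of the 10 genes, against 8.59% of all genes tested. The third was Ralgps2, where the lowest KO library exceeded the highest WT library by little (9.45 against 9.18 CPM), and with RLE scaling, total counts, or the mitochondrial genes left out the count was 2. It was 6 without WT replicate 1 and 5 without KO replicate 2, settings with fewer libraries in which 12.5% and 12.2% of all genes tested had KO wholly above WT.

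The promoter windows of Pax5 and Spib, the pair of B-restricted genes whose groups did not overlap, are shown with that of Bank1, a B-restricted gene whose groups did. Each window runs from 250 bases before to 50 bases after a RefSeq transcription start (GRCm38.p6) and is written in the direction of the gene, all 3 from the minus strand (Pax5 chr4:44710645-44710944, Spib chr7:44532022-44532321, Bank1 chr3:136326017-136326316). Capitals mark matches to the motifs searched on either strand, which were the octamer ATGCAAAT, the EBF core CCCNNGGG, the ETS-type motif GAGGAAGT and the E-box CAGGTG.

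Pax5: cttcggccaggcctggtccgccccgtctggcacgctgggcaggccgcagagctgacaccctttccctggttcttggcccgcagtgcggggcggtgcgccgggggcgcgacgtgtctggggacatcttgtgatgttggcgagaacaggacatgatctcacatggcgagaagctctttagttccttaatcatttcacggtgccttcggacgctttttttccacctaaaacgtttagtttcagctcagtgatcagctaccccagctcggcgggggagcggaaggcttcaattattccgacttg

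Spib: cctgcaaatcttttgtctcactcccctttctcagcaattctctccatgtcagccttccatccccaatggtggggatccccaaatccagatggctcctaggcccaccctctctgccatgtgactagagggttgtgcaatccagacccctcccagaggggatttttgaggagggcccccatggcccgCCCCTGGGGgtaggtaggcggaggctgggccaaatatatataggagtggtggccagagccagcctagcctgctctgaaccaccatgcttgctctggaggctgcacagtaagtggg

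Bank1: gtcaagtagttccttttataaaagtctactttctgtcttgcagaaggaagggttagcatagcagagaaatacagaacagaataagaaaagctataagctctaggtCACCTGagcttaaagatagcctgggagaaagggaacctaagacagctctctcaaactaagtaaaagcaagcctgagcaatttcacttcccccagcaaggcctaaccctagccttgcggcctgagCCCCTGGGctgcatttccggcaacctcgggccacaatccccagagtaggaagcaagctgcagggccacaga

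The EBF core stood in the windows of 2 of the 10 genes, Spib and Bank1, and in those of 15.4% of 27025 genes. In Spib 2 matches overlapped, beginning 65 and 64 bases before the start, and in Bank1 the match began 21 bases before it. The E-box stood in 3 of the 10 (Bank1, Ralgps2 and Tnfrsf13c) and in 22.6% of all genes. The octamer (1.97% of all genes) and the ETS-type motif (3.69%) stood in none of the 12 windows of the 10 genes. A match in these letters is a description of the window and not evidence of binding, and Spib and Bank1 shared the EBF core while their fitted log2 fold changes were 1.01 and 0.42.

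Pou2af1 (chromosome 9, 51213690 to 51240079, plus strand), the octamer coactivator, had CPM values of 1.03, 1.32 and 1.36 (WT) and 2.28, 1.21 and 1.86 (KO). The groups overlapped because KO replicate 2 lay within the WT range. Its log2 fold change was 0.53 (SE 0.35, 95% interval -0.28 to 1.35, adjusted p = 0.61 in edgeR), and it was 0.30 without KO replicate 1. Bank1 (chromosome 3, 136053363 to 136326066, minus strand), which encodes an adapter between the B cell antigen receptor and calcium release, had CPM values of 0.71, 0.88 and 1.59 (WT) and 1.63, 1.29 and 1.28 (KO). Here WT replicate 3 lay within the KO range. The log2 fold change of Bank1 was 0.42 (SE 0.41, adjusted p = 0.715), and it was 0.79 without WT replicate 3 and 0.19 without WT replicate 1.

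Among the receptors, Tnfrsf13b (TACI, chromosome 11, 61126755 to 61149372, plus strand) had CPM values of 1.91, 3.29 and 2.72 (WT) and 3.22, 1.84 and 3.41 (KO). The WT range lay within the KO range, and the log2 fold change was 0.10 (SE 0.33, 95% interval -0.67 to 0.87, adjusted p = 0.926 in edgeR). The sign of that value was not stable, and it was -0.01 with total counts and -0.10 without WT replicate 1. Tnfrsf13c (BAFF-R, chromosome 15, 82221744 to 82224339, minus strand) had CPM values of 0.71, 0 and 0.52 (WT) and 1.16, 0.51 and 0.86 (KO). WT replicate 2, the deepest library, held 0 counts of it, which allows up to 0.0881 CPM (3 counts, counting error only), while WT replicate 1 held 29. The log2 fold change of 1.04 (SE 0.96, 95% interval -1.18 to 3.26, adjusted p = 0.7) had a wide interval, and it was 0.40 without WT replicate 2 and 1.85 without WT replicate 1.

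Ebf1 (chromosome 11, 44617317 to 45008091, plus strand) had the most counts of the 10 genes in every library, with 327 to 626 counts per library. It had CPM values of 15.3, 10.8 and 15.3 (WT) and 14.2, 13.9 and 19.7 (KO). The groups overlapped, with WT replicate 2 the lowest and KO replicate 3 the highest library. Its log2 fold change was 0.21 (SE 0.20, 95% interval -0.27 to 0.68, adjusted p = 0.723 in edgeR), and it was 0.02 without WT replicate 2 or without KO replicate 3. The lung cells that make Ebf1 without being B cells were well represented. The summed level of 15 pericyte and smooth muscle genes was 501 to 741 CPM in WT and 516 to 783 CPM in KO. That of 12 fibroblast genes was 587 to 1029 CPM in WT and 836 to 1128 CPM in KO. Of the 15 genes, 8 had fitted log2 fold changes above 0 and 0 were called. Tagln (-1.06), Lmod1 (-0.79) and Acta2 (-0.53) were lower at an unadjusted p under 0.05 (edgeR), with KO wholly below WT. Both sums were highest in KO replicate 3, as Ebf1 was, but both were lowest in WT replicate 1, where Ebf1 was not low. The part of stromal cells in the level of Ebf1 was not tested.

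The log2 ratio of Ebf1 to Pax5 counts, which does not depend on library scaling, was 3.54, 2.96 and 4.41 in WT and 2.5, 2.44 and 3.17 in KO. KO replicate 3 was above WT replicate 2, so the groups overlapped. The ratio was lower in KO by a mean of 0.93, beside SDs of 0.73 in WT and 0.40 in KO, and did not pass the test (exact permutation test, two-sided, p = 0.2).

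Ralgps2 (chromosome 1, 156804166 to 156939626, minus strand), which encodes an exchange factor for the small GTPase Ral, had CPM values of 9.18, 8.99 and 4.92 (WT) and 9.67, 10.7 and 9.45 (KO). WT replicate 3 stood below the other libraries, and the log2 fold change of 0.36 (SE 0.24, 95% interval -0.20 to 0.93, adjusted p = 0.618 in edgeR) was 0.11 without it. Pou2f2 (OCT-2, chromosome 7, 25087344 to 25159922, minus strand) had CPM values of 2.01, 1.12 and 1.4 (WT) and 2.54, 1.62 and 2.73 (KO). KO replicate 2 lay below WT replicate 1, and the log2 fold change was 0.60 (SE 0.35, 95% interval -0.22 to 1.41, adjusted p = 0.578), with 0.37 when WT replicate 2 was left out. Bcl11a (chromosome 11, 24078056 to 24174123, plus strand), a zinc finger repressor of lymphoid precursors, had CPM values of 0.69, 0.38 and 0.33 (WT) and 0.99, 0.77 and 0.62 (KO). It rested on 7 to 28 counts per library, the groups overlapped, and the log2 fold change was 0.73 (SE 0.48, 95% interval -0.37 to 1.84, adjusted p = 0.607), with 1.13 when WT replicate 1 was left out.

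Levels were compared between genes per length of the counted exons, as reads per kilobase and 1000000 counts. In WT the order of the mean levels was Ebf1 (1.42 ± 0.265, SD, n = 3), Tnfrsf13b (0.930), Ralgps2 (0.637), Pou2af1 (0.482), Spib (0.380), Tnfrsf13c (0.202), Pou2f2 (0.183), Bank1 (0.142), Pax5 (0.127) and Bcl11a (0.0353). Of the 9 neighboring pairs in that order, 8 had overlapping ranges over the WT libraries, and only Bcl11a lay wholly below its neighbor Pax5. In KO the order of the first 3 genes and of the last was the same, Spib (0.776) came before Pou2af1 (0.696) and Pax5 (0.271) before Bank1 (0.187). There Ebf1 (1.63) lay wholly above Tnfrsf13b (0.996), Pax5 above Bank1, and Bank1 above Bcl11a (0.0603), and the ranges of the other 6 neighboring pairs overlapped.

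**Figure D2:**
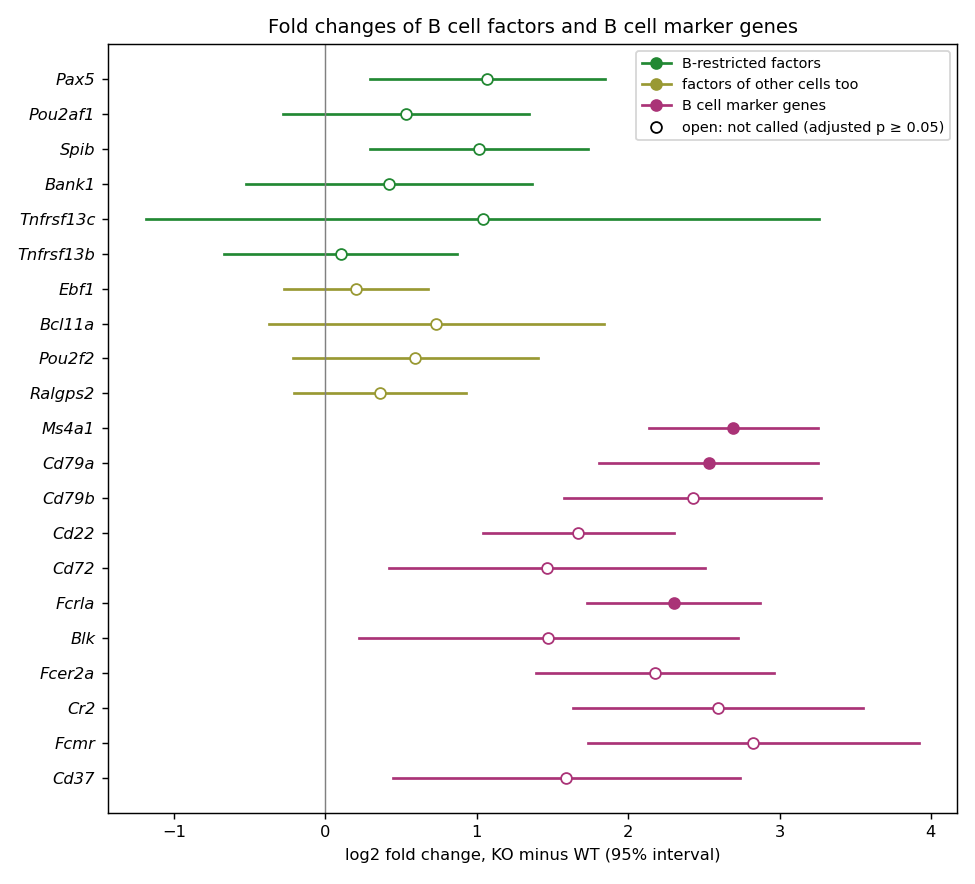
Log2 fold changes between KO and WT (horizontal axis, points) with 95% intervals (lines) for the 6 B-restricted factors, the 4 factors made by other cells too and 11 of the B cell marker genes, where filled points are genes with an adjusted p under 0.05. The points of the 10 factors lie between 0.10 and 1.07 and all are open, while those of the marker genes lie between 1.46 and 2.83. Of the markers 3 are filled, and the intervals of some factors and some markers overlap.

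Genes listed as targets of the transcription factors among the 10 genes were set beside the 10. Of 14 such targets, all were tested, 1 was called and was higher (Cd79a), 0 were called lower, and the median log2 fold change was 1.47. Cd79a, the signaling chain of the B cell antigen receptor and a target of PAX5 and EBF1, rose from 1.44, 2.47 and 3.51 CPM in WT to 16.0, 12.1 and 14.1 CPM in KO. The targets Cr2 (1.77 CPM in WT, 10.3 in KO) and Fcer2a (3.16 and 14.2) had fitted log2 fold changes of 2.59 and 2.18 but were not called (adjusted p = 0.0954 and 0.0905 in edgeR). Some targets lay in or below the range of the factors, and 10 of the 14 had log2 fold changes above 0. Cd40 was at 0.75 and Blnk, the linker between the receptor and its kinases, at 0.31. Below 0 were Bcl2a1a (-0.19), Bcl2a1b (-0.12), Bcl2a1d (-0.28) and Ciita, the activator of MHC class II genes (-0.44). Ciita is also made by other antigen-presenting cells.

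In a list of 12 mature B cell markers, which shares Blk, Cd72, Cd79a, Cd79b, Cr2 and Fcer2a among others with the targets, Ms4a1, Cd79a and Fcrla rose and no gene fell. Every gene of the list had KO wholly above WT, against 8.59% of all genes tested. The lowest log2 fold change of that list, 1.46 for Cd72, was above the highest of the 10 factors, 1.07 for Pax5. Both lists were written with earlier results of these libraries known, so the contrast is a description.

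The B-restricted factors were therefore also expressed relative to Cd79a in each library, as a log2 ratio of counts. Cd79a itself was higher in every KO library (log2 fold change 2.53), so the ratio falls for any gene that rose less. Separate groups in these ratios are thus set in large part by the reference, also for a gene with little change of its own. For Pax5 it was -0.15, -0.83 and -2.29 in WT and -2.67, -2.25 and -2.69 in KO, so that WT replicate 3 lay within the KO range. Spib was at -0.32, -0.89 and -2.12 in WT and at -2.83, -2.54 and -2.56 in KO. For this gene the groups did not overlap, with WT replicate 3 closest to KO.

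Pou2af1 was lower relative to Cd79a in every KO library (-3.30 to -2.80) than in every WT library (-1.36 to -0.48), and so were Bank1 (-3.45 to -3.22 against -1.47 to -1.01) and Tnfrsf13b (-2.71 to -2.04 against -0.37 to 0.41). For Tnfrsf13c the ratio was -1.01, -7.18 and -2.73 in WT and -3.76, -4.51 and -4.00 in KO. These groups overlapped, and WT replicate 2 held 0 counts of Tnfrsf13c. Cd79a was taken as the reference after its rise was known, and no test was made on these ratios. The share of all genes whose ratio to Cd79a separates the groups was not computed. The summed level of the 6 B-restricted factors was 6.81, 8.19 and 7.68 CPM in WT and 13.02, 9.45 and 11.97 CPM in KO, while that of the 12 markers was 15.8, 26.3 and 38.9 CPM in WT and 140.0, 131 and 128 CPM in KO. Among the WT libraries the marker sum was lowest in replicate 1 and highest in replicate 3, and the factor sum was lowest in replicate 1 and highest in replicate 2. Pax5 and Spib were instead lowest in WT replicate 3 (0.70 and 0.80 CPM), so they did not follow the markers across the WT libraries. The reason was not tested.

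**Figure D3:**
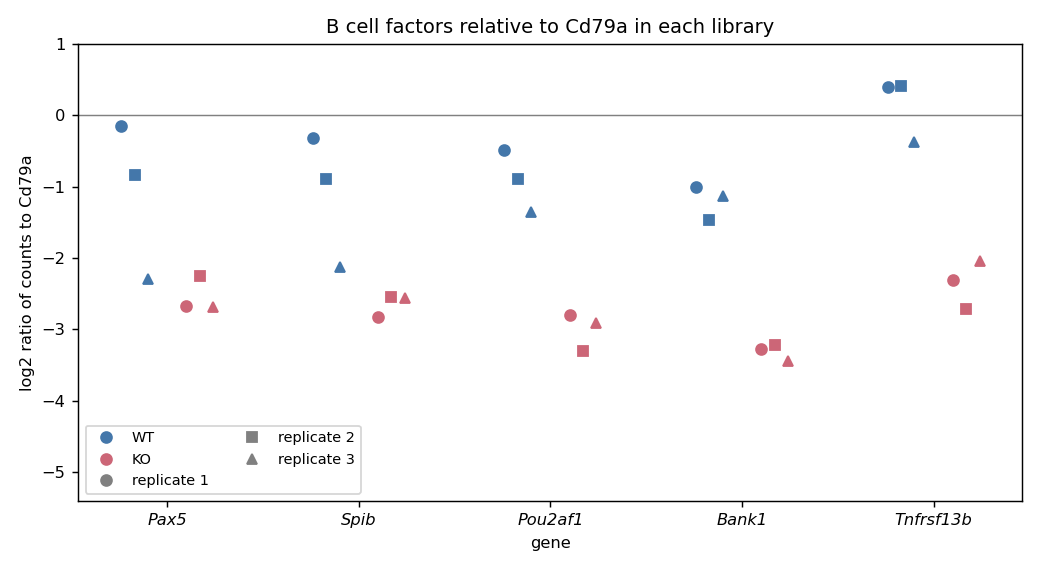
Log2 ratio of the counts of 5 B-restricted factors to those of Cd79a (vertical axis) in the WT (blue) and KO (red) libraries, with the marker shape giving the replicate. Cd79a was itself higher in every KO library, which lowers the ratio of any gene that rose less. Tnfrsf13c, with 0 counts in WT replicate 2 and overlapping groups, is not drawn. For Bank1 the KO libraries lie between -3.45 and -3.22 and the WT libraries between -1.47 and -1.01, whereas the groups overlap for Pax5 through WT replicate 3.

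The partners of the survival receptors showed no called change. Of 17 genes of the BAFF and APRIL pathway, 16 were tested, 0 were called in either direction by edgeR's test, 1 had an unadjusted p under 0.05 (lower), and the median log2 fold change was -0.09. Only 2 of the 16, Tnfsf13b and Map3k14, had log2 fold changes above 0, where 54.1% of all genes tested did. KO lay wholly below WT for 3 of the 16, Mcl1, Nfkb2 (-0.27) and Traf2 (-0.15), and for 1345 of the 14625 genes tested. The ligand gene Tnfsf13b (BAFF) had CPM values of 3.55, 6.02 and 3.18 (WT) and 3.14, 6.33 and 6.11 (KO), with overlapping groups. For Tnfsf13 (APRIL) the mean was 1.19 ± 0.742 CPM in WT and 1.12 ± 0.193 CPM in KO (SD, n = 3 each). Tnfrsf17 (BCMA), the third receptor, which marks plasma cells, held 3, 3 and 0 counts in the WT libraries, 0, 11 and 0 in the KO libraries, and was not tested. Of the signaling genes downstream, Traf3, a brake on BAFF-R signaling, had a log2 fold change of -0.13 and Map3k14 (NIK), its kinase target, one of 0.05. The gene with the lowest unadjusted p of the list was Mcl1, a survival factor of many cell types, whose CPM values of 289, 259 and 303 in WT lay above those of 216, 177 and 205 in KO (log2 fold change -0.51, adjusted p = 0.385 in edgeR).

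Other regulators of B cell development gave no call either. Among 17 lymphoid and early B genes, 10 were tested with 0 called and 0 at an unadjusted p under 0.05 (edgeR). Rag1, Rag2 and Vpreb2, which mark B cell precursors that rearrange their antigen receptor, had 0 counts in all 6 libraries, and Dntt, Vpreb1 and Igll1 had at most 12 counts in any. Vpreb3 ranged over 2.06 to 6.55 CPM among WT and 3.66 to 9.27 CPM among KO libraries. For Ikzf3 (Aiolos), a factor of mature lymphocytes, the WT libraries gave 0.83, 0.15 and 0.75 CPM and the KO libraries 1.33, 1.77 and 0.76 CPM. The groups overlapped in part, and the fitted difference was 1.16 on the log2 scale (SE 0.64, adjusted p = 0.56 in edgeR).

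Of 13 mature and germinal center factors, 11 were tested with 0 called and 2 at an unadjusted p under 0.05, S1pr2 higher and Foxp1 lower. Of 8 plasma cell genes 7 were tested with 0 called, and Prdm1 (BLIMP1), which is also made by T cells and some ECs, was at 9.14 ± 2.34 in WT and 17.7 ± 4.82 in KO (mean CPM ± SD, n = 3), with a log2 difference of 0.95 (adjusted p = 0.327 in edgeR) and KO wholly above WT. For Irf4 and Xbp1, factors of plasma cell formation and secretion that other cells also make, KO lay wholly below WT (log2 differences of -0.77 and -0.34, adjusted p = 0.513 and 0.524 in edgeR). Of 17 genes that carry the signal of the B cell antigen receptor, all were tested and 0 called, with a median of -0.14. At an unadjusted p under 0.05, 1 was higher and 1 lower (Bcl10).

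The closest relatives of the factors were compared as well. Of 12 paralogs 6 were tested, 0 were called and 0 had an unadjusted p under 0.05 (edgeR). Pou2f1 (OCT-1), the broadly made relative of Pou2f2, was at 17.6 ± 2.09 in WT and 20.9 ± 4.87 in KO (mean CPM ± SD, n = 3), and Spi1 (PU.1), the myeloid relative of Spib, had means of 13.1 ± 3.76 (WT) and 11.5 ± 3.80 CPM (KO). The log2 fold changes were 0.41 for Ebf2, 0.26 for Ebf4, 0.44 for Ralgps1 and -0.35 for Pik3ap1, a relative of Bank1. Pax2, Pax8, Ebf3, Spic, Bcl11b and Pou2f3 were too low to test.

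Markers of other immune cells, some of which make several of the 10 genes, gave no call. Of 15 macrophage and monocyte genes 0 were called and 1 was higher at an unadjusted p under 0.05 (Ccr2). Their median was 0.31 on the log2 scale and their sum 152 to 416 CPM in WT and 225 to 499 CPM in KO. Of 10 plasmacytoid dendritic cell genes 9 were tested with 0 called and a median of 0.82, and 7 had log2 fold changes above 0. Their sum was 274 to 389 CPM in WT and 307 to 408 CPM in KO. Most of that sum was Tcf4, at 228 to 329 CPM in WT and 254 to 351 CPM in KO, so it says little of the other genes. Ly6d and Lair1, which B cells also make, were higher at an unadjusted p under 0.05, and Siglech, which defines that cell type best, had CPM values of 0.54, 0.82 and 0.84 (WT) and 1.81, 0.51 and 1.55 (KO). Of 12 T cell genes 9 were tested with 0 called, 5 higher at an unadjusted p under 0.05 and a median of 1.01, and their sum was 4.77 to 8.78 CPM in WT and 11.5 to 18.3 CPM in KO. The part of these cells in the levels of the 10 genes was not tested.

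The genes whose log2 CPM was most like that of Pax5 over the 6 libraries, among 12888 genes with a mean of at least 1 CPM, were Tab1 (Pearson r = 0.998), Dixdc1 (0.995), Saal1 (0.99), Asl (0.989) and Hoxa7 (0.986). None of them is a B cell marker, and all had KO libraries above WT libraries with WT replicate 3 the lowest of the 6. Those most like Ebf1 were Dhx35 (0.988), Ptcd3 (0.982), Trim62 (0.981), Ercc2 (0.98) and Cuedc1 (0.98), of which none is a marker of B cells, pericytes or fibroblasts in the lists used here. The points are 6 libraries that also differ in depth and cell makeup, so these values describe profiles only.

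**Figure D4:**
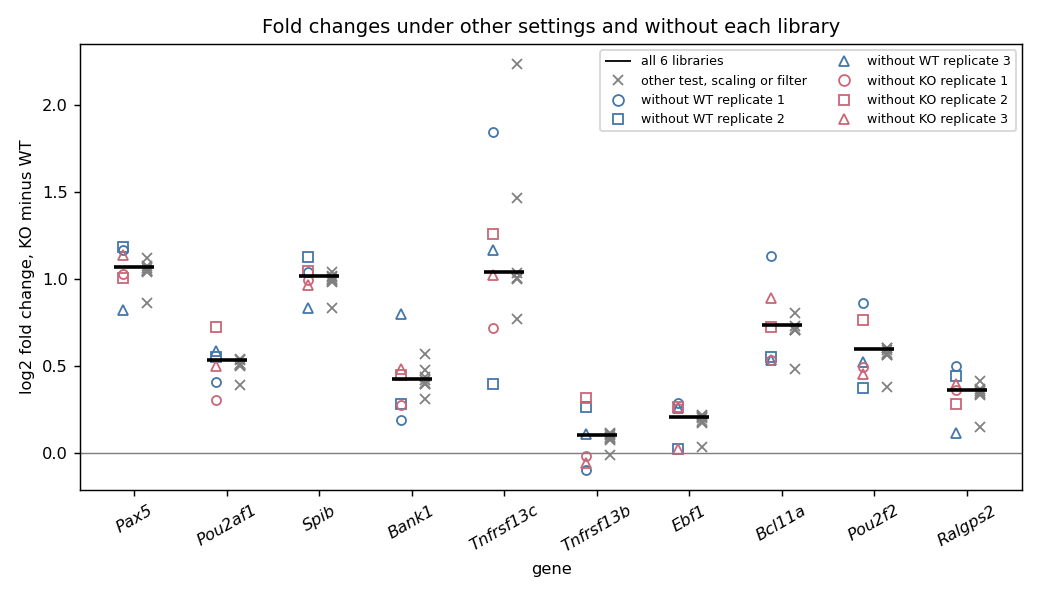
Log2 fold change between KO and WT of the 10 genes (vertical axis) with all 6 libraries (black bars), without each library in turn (open markers, blue for a WT and red for a KO library left out) and with another test, scaling or filter (grey crosses). Pax5 and Spib stay above 0.8 throughout, Tnfrsf13b lies on both sides of 0, and Tnfrsf13c spans 0.40 to 2.23.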

How the data were processed

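Each library has a deposited table of raw counts for every gene. Per the file headers they were made with featureCounts v2.0.0 on uniquely aligned reads, over the exons of each gene in the Ensembl release 84 annotation of GRCm38, in the reverse orientation of the stranded kit, so antisense genes are told apart. The submitters' processing notes name STAR 2.5.4b. Reads over several genes are dropped by that tool's default. The study's methods name DESeq2 for its own test. Of the exons of the 10 genes, only 35 bases of Pou2f2 are shared with another gene on the same strand (GENCODE M21). Symbols came from GENCODE M21, also GRCm38, for 47224 of 47729 genes.

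Counts were tested in R 4.3.3 with edgeR 4.0.16 (filterByExpr, TMM, glmQLFit and glmQLFTest, genotype as the only term, defaults), Benjamini-Hochberg adjustment covered all genes tested, and CPM uses TMM-scaled library sizes. TMM factors ran from 0.874 to 1.37. A fold change is on the log2 scale, its standard error is its size divided by the square root of F, and intervals are at 95%. Ratios used a prior count of 0.5 and profile likeness log2 CPM with a prior count of 2. Alternatives were DESeq2 1.42.0 on every gene with at least 1 count, limma-voom (limma 3.58.1), RLE and total-count scaling, mitochondrial genes (37.4% to 54.5% of counts) left out, other filters, a replicate block and each library left out. The test was first run on simulated data.

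The 10 genes, the lists, the alternatives and the rule for named genes were chosen with earlier results of these data known. The rule names the 10 genes, the BAFF and APRIL genes, tested paralogs, up to 4 genes of lowest p per list, and the 5 genes most like Pax5 and Ebf1. Cd72, Blnk, Ciita, Cd40, Bcl2a1a, Bcl2a1b, Bcl2a1d, Traf3, Map3k14, Vpreb3, Siglech, Tcf4, Xbp1 and genes with few counts were named after their values were seen. No pair of libraries of a group held the same counts (the smallest chi-square was 37 times its degrees of freedom), and no batch is given in the labels. Promoter windows are RefSeq's on GRCm38.p6. Some genes of the lists are counted in the totals but not reported here by name.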

Additional observations from a re-analysis of the deposited data

How the results depend on the processing

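None of the 10 genes was called under any of the 14 alternatives in which it could be tested (Bcl11a and Tnfrsf13c did not pass a filter of 10 counts in every library). Adjusted p-values ran from 0.121 to 0.74 for Pax5 and from 0.114 to 0.734 for Spib over all settings. The number of all genes called was 16 and moved to 185 with DESeq2, 26 with limma-voom, 26 with RLE scaling, 123 with total counts and 152 without a filter. Of the called genes 31.2% were higher in KO in the edgeR fit with TMM scaling of all 6 libraries. That share was 47.0% with DESeq2, 49.6% with total counts and 57.2% without a filter. It was 61.5% without WT replicate 3 and 83.4% without WT replicate 2. Total counts moved the median log2 fold change of all genes by -0.167. The causes of these moves were not tested. Without each library in turn the number was 0 to 791, the highest when WT replicate 2 was left out and the lowest when any KO library was, and the number of the 10 genes with KO wholly above WT was 2 to 6, where 12% to 21.2% of all genes were so placed. The log2 fold change of Tnfrsf13b was -0.014 with total counts and ran from -0.10 to 0.31 without each library, with -0.10, -0.02 and -0.06 without WT replicate 1, KO replicate 1 and KO replicate 3. The ratio of Ebf1 to Pax5 differed by -1.27 to -0.55 without each library. Same-numbered WT and KO libraries had deviations from their group means that correlated at -0.0814, 0.219 and 0.0111. For libraries of unlike number the values ran from -0.185 to 0.194. With 3 libraries per group, these values cannot decide if the numbers pair the libraries. With the replicate block 0 genes were called (edgeR, 1776 at an unadjusted p under 0.05), and 0 of the 10.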
